A study of Homo sapiens with 39 samples.

Results

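Of the 20802 genes measured in the series, 7 are described here: DRAXIN, TREM2, SYTL1, INPP5D, ABCA12, CEL and MR1. They were selected on measured values of these same libraries, because their levels rose with the DNA damage-inducing (DDI) chemicals. Their rise and the direction of their difference between chemical classes are therefore descriptions, given with no test. Each gene was read by 1 amplicon of a targeted transcriptome panel, which was AMPL21568493 for DRAXIN, AMPL30572041 for TREM2, AMPL8573465 for SYTL1, AMPL26955322 for INPP5D, AMPL15858282 for ABCA12, AMPL8603667 for CEL and AMPL11862091 for MR1.

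HepaRG™ is an established human liver progenitor line that differentiates into a mixed culture of hepatocyte-like and cholangiocyte-like cells and keeps much of the liver's drug metabolism. Differentiated cultures received 1 chemical or its vehicle in 3 daily exposures and were collected 7 h after the last one, at 55 h in all. The DDI chemicals were aflatoxin B1 (AFB1; 0.25, 1 and 2.5 μM), 2-nitrofluorene (2NF; 10, 50 and 250 μM), cisplatin (CISP; 2, 5 and 10 μM), etoposide (ETP; 0.5, 2.5 and 10 μM) and methyl methanesulfonate (MMS; 50, 100 and 200 μM). The non-DDI chemicals were ampicillin (AMP; 1, 3 and 10 mM), ascorbate (ASC; 1, 2 and 10 mM), 2-deoxyglucose (2DG; 1.25, 5 and 10 mM), NaCl (1, 2.5 and 10 mM) and the spindle poison colchicine (COL; 0.05, 0.1 and 0.3 μM). The classes follow the study, and the 3 concentrations are called low, mid and high. The 9 controls were 4 given DMSO, 4 given media and 1 given water. AFB1, 2NF, CISP, ETP and COL were given in DMSO, MMS in water and the other 4 chemicals in media, so class and vehicle nearly coincide, and AFB1 and COL share 1 control. Each of the 39 libraries was made from RNA pooled from 3 cultures, so no condition has a replicate check, and the spread given is that over the 5 chemicals of a class or over controls of 1 vehicle. Library totals ran from 8504699 to 16425527 counts.

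TREM2, INPP5D, ABCA12, CEL and DRAXIN are best known from tissues other than the liver. TREM2 is a lipid-sensing receptor of macrophages and microglia that signals through the adaptor TYROBP, and INPP5D encodes SHIP1, a phosphatase that removes a phosphate from the lipid product of phosphoinositide kinases, mainly in blood cells. MR1 presents microbial vitamin B metabolites to a class of T cells. SYTL1 binds RAB27 on secretory vesicles, ABCA12 loads lipids into the granules that build the skin barrier, CEL is the bile salt-dependent lipase of pancreatic juice, and DRAXIN is a secreted axon guidance protein that binds netrin receptors and restrains Wnt signalling. DNA damage stabilises the transcription factor p53, which binds pairs of short half-sites near its target genes and raises genes of arrest, repair and death.

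The 250 bases before each annotated start were searched on both strands for the p53 half-site consensus and for its common core, CATG. The promoter table of RefSeq (GRCh38.p14) held all 7 members in 9 windows. The half-site consensus matched 2 of the 9 windows, against 5.57% of 35116 windows of the table, and both are shown with the match in capitals. The ABCA12 window (chr2:215138627-215138876, minus strand) holds GGACAAGTCC, whose first base lies 82 bases before the start, and the MR1 window (chr1:181033137-181033386, plus strand) holds GGACAAGCTT, whose first base lies 71 bases before the start. CATG, which overlaps neither match, was present in 5 of the 9 windows, from 4 genes, against 47.6% of all windows. The TREM2 window (chr6:41163117-41163366, minus strand) is shown with CATG in capitals, because TREM2 was 1 of the 2 members with the largest log2 ratios and its window had no half-site match. Neither motif matched the windows of DRAXIN, SYTL1 and INPP5D. A match is a description of letters and not a measured binding site.
ABCA12: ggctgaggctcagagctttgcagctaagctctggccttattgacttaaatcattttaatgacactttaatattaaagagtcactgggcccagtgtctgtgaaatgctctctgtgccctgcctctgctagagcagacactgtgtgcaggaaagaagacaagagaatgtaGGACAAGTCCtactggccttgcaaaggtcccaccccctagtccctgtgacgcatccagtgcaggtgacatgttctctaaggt
MR1: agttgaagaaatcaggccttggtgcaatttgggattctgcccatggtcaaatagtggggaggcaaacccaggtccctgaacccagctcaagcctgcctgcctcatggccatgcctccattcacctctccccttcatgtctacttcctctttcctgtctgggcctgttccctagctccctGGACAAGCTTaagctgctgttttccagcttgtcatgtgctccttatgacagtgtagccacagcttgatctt
TREM2: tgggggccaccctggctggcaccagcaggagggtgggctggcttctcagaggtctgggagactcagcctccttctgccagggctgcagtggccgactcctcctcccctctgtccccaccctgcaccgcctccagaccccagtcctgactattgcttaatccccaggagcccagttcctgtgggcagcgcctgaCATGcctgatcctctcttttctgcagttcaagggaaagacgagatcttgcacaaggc

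At the high concentration the members' median class difference in mean log2 ratio was 1.38, against 0.04 over all genes tested. Levels are deposited RPM, each library's counts scaled to a total of 1000000, and the log2 ratio sets log2(RPM + 1) of a treated library against that of its matched control. The lowest DDI ratio exceeded the highest non-DDI ratio in 6 of the 7 members, MR1 excepted, and in 0.926% of 13602 tested genes. The count was 4 members with DESeq2 size factors and 5 when the reference was the same-vehicle controls averaged. At the mid concentration all 7 members had this order, against 0.778% of genes, and at the low concentration INPP5D and MR1 did, against 0.213%. Of 35 DDI values, 28, 25 and 7 exceeded the largest difference between controls of 1 vehicle at the high, mid and low concentrations, against 0, 1 and 2 of 35 non-DDI values. These counts restate the choice of the genes, and nothing is read from them. DRAXIN fell below the filter on low counts at the low concentration, and at the mid and high concentrations it passed through the libraries in which it was high.

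**Figure D1:**
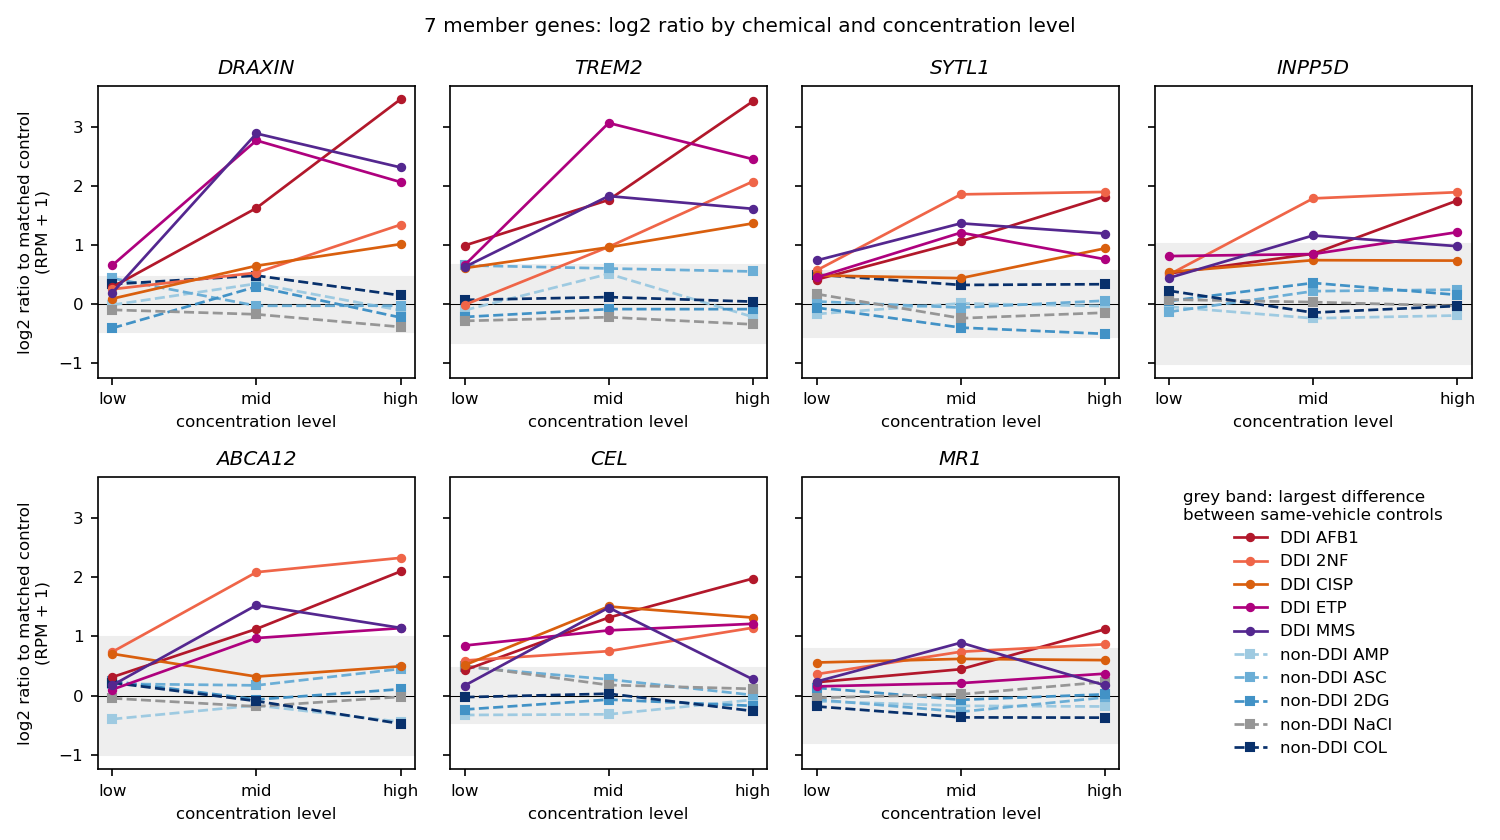
Log2 ratio of each member to its matched control (RPM + 1, vertical axis) at the low, mid and high concentration of 10 chemicals, with DDI chemicals as solid lines and non-DDI chemicals as dashed lines. The grey band is the largest difference between 2 controls of the same vehicle, which 28 of 35 DDI values and 0 of 35 non-DDI values exceeded at the high concentration.

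DRAXIN, the axon guidance protein, went from no reads to its highest level with AFB1. All 4 DMSO controls held 0 DRAXIN counts, which allows up to 0.314 RPM at a limit of 3 counts per library, and the media and water controls held 2 to 8 counts. At the top dose DRAXIN stood at 10.0 RPM with AFB1, 5.53 RPM with MMS, 3.18 RPM with ETP, 1.53 RPM with 2NF and 1.02 RPM with CISP. Every one of these libraries was above every non-DDI library of that level, which held 0 to 4 counts each. Against the 3-count limit of its own control, the DRAXIN level was 46.6-fold with AFB1, 14.0-fold with ETP, 4.88-fold with 2NF and 4.12-fold with CISP. For MMS, whose water control held 4 counts, the ratio of levels was 17.4 (95% counting interval 6.39 to 66.5). Such intervals cover counting error only, since the reads carry no molecular identifiers. A ratio to the 3-count limit uses the treated count as read and leaves out its counting error. At the mid concentration ETP (57 counts, 5.80 RPM) and MMS (99 counts, 8.71 RPM) exceeded their own high concentration, while AFB1 gave 31 counts and 2.08 RPM. The mean DRAXIN log2 ratio at the high concentration was 2.04 ± 0.95 (SD, n = 5 chemicals) for DDI and -0.12 ± 0.20 for non-DDI chemicals. The class difference of 2.16 became 5.038 with a pseudocount of 0.1.

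TREM2, the macrophage receptor, followed DRAXIN closely. Its DMSO controls held 0 to 4 counts (0 to 0.303 RPM), its media controls 13 to 21 counts (0.791 to 1.83 RPM) and its water control 26 counts. At the high concentration TREM2 reached 12.8 RPM with AFB1, 8.35 RPM with MMS, 6.11 RPM with ETP, 3.64 RPM with 2NF and 1.57 RPM with CISP. The CISP library lay below the highest non-DDI library in level, ASC at 1.63 RPM in media, although its own control held 0 counts. The TREM2 level with AFB1 was 44.7-fold that of a control of 4 counts (95% counting interval 17.1 to 166), with ETP 20.2-fold (7.43 to 76.9) and with MMS 4.05-fold (2.56 to 6.59). With 2NF, over a control of 1 count, the ratio was 34.8 with an interval of 5.88 to 1410. With CISP the level was 6.36-fold the 3-count limit of its control. ETP at the mid concentration gave 97 counts and 9.86 RPM, above its high concentration. The mean TREM2 log2 ratio at the high concentration was 2.18 ± 0.81 (SD, n = 5) for DDI and -0.01 ± 0.34 for non-DDI chemicals, where ASC was the highest at 0.55. The class difference of 2.19 became 3.84 with a pseudocount of 0.1.

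INPP5D, the phosphoinositide phosphatase, was read at 3.18 to 7.45 RPM in DMSO controls, at 12.0 to 18.3 RPM in media controls and at 20.6 RPM in the water control. Its level at the high concentration was 41.6 RPM with MMS, 27.4 RPM with AFB1, 15.9 RPM with 2NF, 8.70 RPM with ETP and 6.30 RPM with CISP. The order of these levels is not the order of the ratios, because MMS started from the highest control. On the log2 scale the INPP5D ratio was 1.89 with 2NF, 1.75 with AFB1, 1.22 with ETP, 0.98 with MMS and 0.74 with CISP, and the 5 non-DDI chemicals ranged from -0.19 to 0.25. The DMSO controls differed among themselves by up to 1.02, with the control of AFB1 and COL the highest, which the 2NF, AFB1 and ETP ratios exceeded and the MMS and CISP ratios did not. INPP5D was also above every non-DDI chemical at the low concentration, at 0.44 to 0.81 against -0.13 to 0.23.

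MR1, the antigen-presenting molecule, had the smallest class difference of the 7 at the high concentration, 0.69. Its level was 21.8 to 38.4 RPM in DMSO controls and 38.1 to 51.3 RPM in media controls. There MR1 stood at 84.8 RPM with AFB1, 50.4 RPM with MMS, 43.6 RPM with 2NF, 36.8 RPM with ETP and 33.5 RPM with CISP. The AFB1 level was 2.21-fold its control (95% counting interval 1.98 to 2.46) and the 2NF level 1.86-fold (1.58 to 2.19). The MMS log2 ratio of 0.17 at the high concentration lay below that of NaCl, at 0.23, so the classes overlapped there. At the mid concentration the MMS ratio was 0.89 and the classes did not overlap. The lowest MR1 ratio of that level was -0.37 with COL, within the 0.79 by which DMSO controls differed.

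SYTL1, the RAB27 effector, had 57 to 129 counts in each DMSO control (5.97 to 9.24 RPM) and 197 to 439 counts in each media control (up to 29.9 RPM). It was read at the high concentration at 61.5 RPM with MMS, 35.1 RPM with AFB1, 24.9 RPM with 2NF, 14.1 RPM with CISP and 12.5 RPM with ETP. All 5 log2 ratios exceeded the 0.56 by which same-vehicle controls differed, from 0.76 with ETP to 1.90 with 2NF. In fold terms the SYTL1 level with 2NF was 4.18-fold its control (95% counting interval 3.12 to 5.66), with AFB1 3.80-fold (3.10 to 4.67) and with MMS 2.33-fold (2.03 to 2.68). Among non-DDI chemicals the SYTL1 ratio ran from -0.50 with 2DG to 0.34 with COL, and COL was also the highest at the low concentration, at 0.50.

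ABCA12, the skin barrier lipid transporter, had 11.1 to 23.1 RPM in DMSO controls and 29.7 to 46.8 RPM in media controls. The high concentration gave 102 RPM with AFB1, 90.5 RPM with MMS, 59.7 RPM with 2NF, 28.2 RPM with ETP and 17.5 RPM with CISP. The 2NF level was 5.38-fold its control (95% counting interval 4.37 to 6.67) and the AFB1 level 4.42-fold (3.90 to 5.02), with log2 ratios of 2.33 and 2.10. CISP gave only 0.50, close to the highest non-DDI ratio, that of ASC at 0.45. For CISP the low concentration, at 0.71, was the highest of the 3.

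CEL, the bile salt-dependent lipase, held 22 to 39 counts in each DMSO control (1.82 to 2.83 RPM) and 4.37 to 6.41 RPM in media controls. Reads of CEL may be shared with its near-identical pseudogene CELP, so its values are uncertain in that respect. With the high concentration CEL stood at 13.9 RPM with AFB1, 10.5 RPM with MMS, 7.48 RPM with 2NF, 6.23 RPM with ETP and 6.02 RPM with CISP. The CEL level with AFB1 was 4.99-fold its control (95% counting interval 3.49 to 7.29), with CISP 3.32-fold (2.02 to 5.65) and with ETP 2.94-fold (1.83 to 4.83). MMS gave a log2 ratio of 1.49 at the mid concentration (291 counts, 25.6 RPM) and 0.28 at the high concentration (93 counts). With CISP at the mid concentration CEL had the largest log2 ratio of the members, 1.51.

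The chemicals differed in how the members followed concentration. With AFB1 and with 2NF, the log2 ratio of 7 of 7 members increased from low to mid to high. With MMS, 7 of 7 members were highest at the mid concentration. With ETP 4 members increased stepwise (INPP5D, ABCA12, CEL and MR1), while DRAXIN, TREM2 and SYTL1 were highest at mid. With CISP 2 members increased stepwise. Each non-DDI chemical had at most 1 member that increased stepwise.

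A log2 ratio over 1 was reached by 7 of 7 members with AFB1 at the high concentration, where 3.24% of all tested genes reached it. With 2NF 6 members did, against 4.44% of genes, and with ETP 5, against 1.01%. MMS took 4 members past it at the high concentration, against 3.1%, and 6 at the mid concentration, against 3.22%. ETP at the mid concentration took 4 members past it, against 2.11%, and CISP at the high concentration took 3 (DRAXIN, TREM2 and CEL), against 0.485%. DRAXIN or TREM2 had the largest ratio with AFB1, CISP, ETP and MMS at the high concentration, and ABCA12 had it with 2NF. COL, which disrupts the spindle, took no member past a log2 ratio of 1 at any concentration, and its values at the high concentration ran from -0.47 for ABCA12 to 0.34 for SYTL1.

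The level of the members in untreated cells differed between the DMSO and the media controls. These belong to different chemicals' experiments, so vehicle and experiment cannot be told apart. In 6 of the 7 members, MR1 excepted, all 4 DMSO controls lay below all 4 media controls, an order shown by 8.87% of 13602 genes. The mean media level was 7.53 times the mean DMSO level for TREM2, 3.76 times for INPP5D, 3.35 times for SYTL1, 2.58 times for ABCA12, 2.41 times for CEL and 1.64 times for MR1. The controls entered the ratios by which the genes were chosen, so this too is a description. Levels of the DMSO-given DDI libraries overlapped those of the media controls in several members. Of the high-concentration libraries, DRAXIN was above every media control in 4 of the 4 DMSO-given DDI libraries and TREM2 in 3, but SYTL1, INPP5D and MR1 in 1 each. SYTL1, INPP5D, ABCA12 and MR1 were each below every media control in 2 of the 4.

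**Figure D2:**
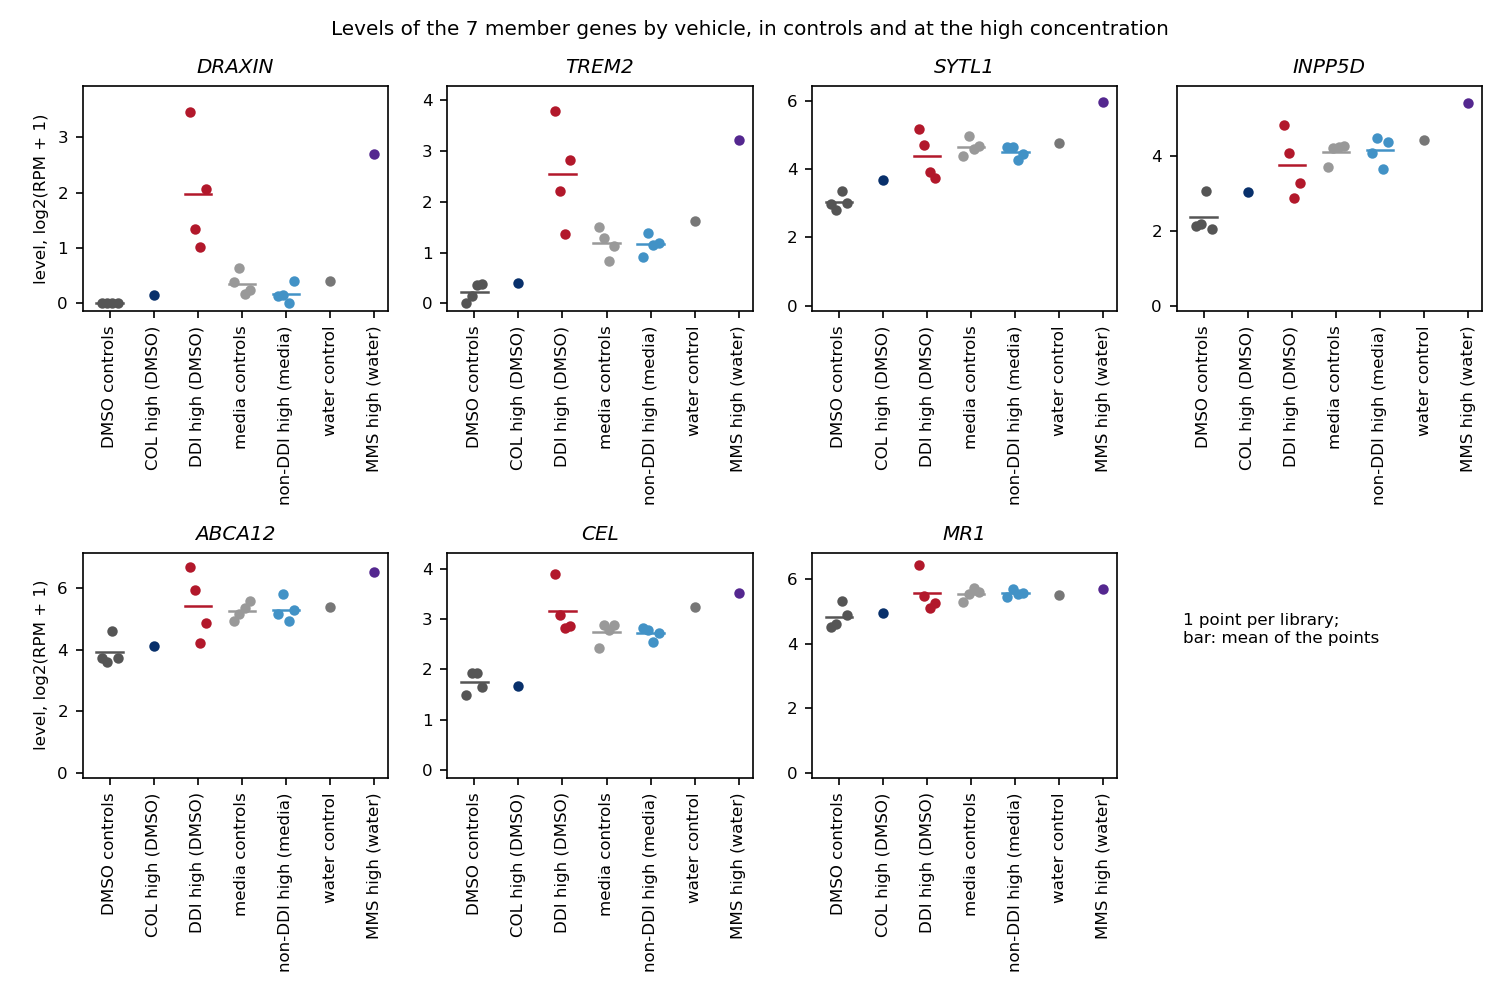
Level of each member as log2(RPM + 1) (vertical axis) in controls and in libraries of the high concentration, grouped by vehicle, with 1 point per library and a bar at the mean. The DMSO controls lie below the media controls in 6 of 7 genes, and the DRAXIN points of the 4 DMSO controls are at 0.

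Set against the mean of all 9 controls, and not against the matched control, the class difference at the high concentration was 0.16 for INPP5D and MR1, 0.37 for SYTL1, 0.59 for ABCA12 and 0.73 for CEL, and 1.95 for DRAXIN and 1.67 for TREM2. With that reference only 1 member kept every DDI chemical above every non-DDI chemical at the high concentration. Within DMSO, an alternative added after the data were seen, 4 DDI chemicals were set against COL alone. There all 4 lay above COL in 7 of 7 members at the high and mid concentrations and in 3 at the low concentration. The share of all genes with that order is not given. The members were chosen on these same DDI ratios, so nothing is read from the count. The difference within DMSO at the high concentration was 2.28 for TREM2, 1.99 for ABCA12, 1.82 for DRAXIN, 1.67 for CEL, 1.43 for INPP5D, 1.11 for MR1 and 1.02 for SYTL1, against a single non-DDI chemical. Outside DMSO the classes sit in different vehicles, and vehicle and class cannot be told apart.

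Among themselves the members were correlated to different degrees. Over the 30 treated conditions the Pearson r of log2 ratios had a median of 0.78 over 21 pairs (0.61 to 0.94). Over the 15 DDI conditions alone, r was 0.89 between DRAXIN and TREM2, and 0.93, 0.92 and 0.89 among SYTL1, ABCA12 and INPP5D, with a median of 0.60 over all pairs. Over the 15 non-DDI conditions the median was 0.12, and DRAXIN and MR1 had the lowest value, -0.69. DRAXIN held at most 9 counts in any of those libraries, so nothing is read from its values there. Conditions share controls, and the 3 concentrations of a chemical share 1, so these values are given without a p. AFB1 gave the largest DRAXIN and TREM2 ratios of the high concentration, and 2NF the largest ABCA12, INPP5D and SYTL1 ratios.

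**Figure D3:**
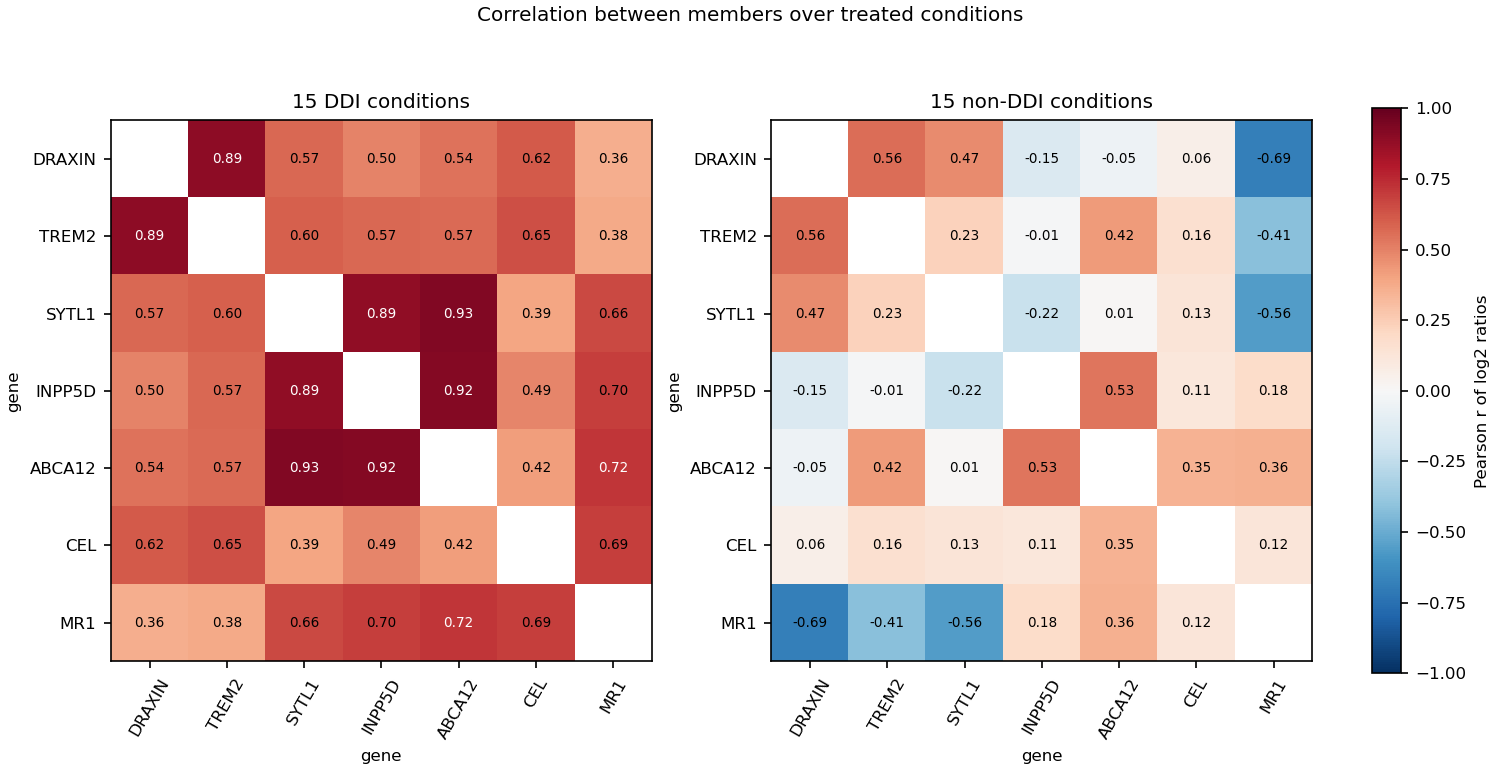
Pearson r of log2 ratios between each pair of members (both axes), over 15 DDI conditions on the left and 15 non-DDI conditions on the right. DRAXIN with TREM2 and the trio SYTL1, INPP5D and ABCA12 stand between 0.887 and 0.927 on the left.

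The genes most like a member were ranked by r over the 30 conditions on which the members were chosen, so genes that are higher with the DDI chemicals rank high. Outside the 7 members, FDXR was among the 3 highest for TREM2, INPP5D, ABCA12 and MR1. After TREM2 (r = 0.92 over 30 conditions), DRAXIN was most like SPATA18 (0.88), a p53 target of mitochondrial quality control, and E2F7 (0.86), a repressor of the cell cycle. DRAXIN had too few counts to be ranked itself. After it, TREM2 was most like MND1 (0.85), a recombination gene, FDXR (0.84), a mitochondrial reductase and p53 target, and FBXO22 (0.84), a ubiquitin ligase subunit. Among the genes most like SYTL1 were TYMS (0.91), which makes thymidylate, and ABCA12 (0.89). INPP5D and ABCA12 were each other's closest gene (0.94). INPP5D was next most like FDXR (0.90) and SYTL1 (0.89), and ABCA12 was next most like the histone gene HIST1H3B (0.91), which has near-identical copies, and FDXR (0.90). MR1 was most like INPP5D (0.85), FDXR (0.85) and ABCA12 (0.84). CEL had the weakest matches, with MR1 at 0.83, TREM2 at 0.80 and the cytidine deaminase APOBEC3G at 0.80. Within a class the values could be lower. For FDXR with MR1, r was 0.63 over the 15 DDI conditions, and for FDXR with TREM2 it was 0.80 over the DDI and -0.28 over the non-DDI conditions. With COL at the high concentration, the members ABCA12 (-0.47), MR1 (-0.37), CEL (-0.26) and INPP5D (-0.03) had log2 ratios below 0. So had FDXR (-0.29), FBXO22 (-0.20), HIST1H3B (-0.12) and APOBEC3G (-0.00098). The members SYTL1 (0.34), DRAXIN (0.15) and TREM2 (0.04) were above 0, as were E2F7 (1.09), TYMS (0.71), SPATA18 (0.55) and MND1 (0.41). Each member's value was smaller than the largest difference between its same-vehicle controls.

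Fits of the class difference with edgeR's quasi-likelihood test called 7 of 13602 genes at the high concentration (0.0515%, adjusted p under 0.05), of which 4 were members: DRAXIN, TREM2, SYTL1 and INPP5D. The contrast is the one the members were chosen on, so nothing is read from that. The other 3 were ASF1B, a histone chaperone, FDXR and TYMS. The fitted log2 difference was 1.71 ± 0.32 (SE) for ABCA12, 1.67 ± 0.33 for CEL, 1.47 ± 0.23 for INPP5D, 1.45 ± 0.21 for SYTL1 and 0.80 ± 0.20 for MR1. For TREM2 (4.10) and DRAXIN (6.75) the estimate depends on how the fit treats controls at or near 0 counts. At the mid concentration 0 of 13626 genes were called (0%; 783 at an unadjusted p under 0.05, and 12 called by DESeq2), and at the low concentration 0 of 13634 (0%; 308 unadjusted, 0 by DESeq2). At the high concentration edgeR called 0 genes when any 1 of AFB1, 2NF, ETP, AMP, ASC or 2DG was left out.

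No partner gene of the members passed the test. In 7 lists of partner genes, chosen by function with results of these data known, 81 genes could be tested at the high concentration, and 0 were called by edgeR or by DESeq2. With each tool 8 of the 81 had an unadjusted p under 0.05, against 1068 (edgeR) and 1025 (DESeq2) of all 13602 genes. At the mid and low concentrations 0 of 80 were called by edgeR or by DESeq2 (0 unadjusted with edgeR, and 2 unadjusted with DESeq2 at mid). The lists' median log2 differences at the high concentration ran from -0.19 to 0.05, near the -0.01 of all genes tested. The same edgeR test called only 1 of 26 p53 targets at that concentration, so a gene not called is not shown to be unchanged.

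No reads of the main TREM2 adaptor were found. TYROBP, which carries the TREM2 signal, was at 0 counts in every library, and the other adaptor, HCST, reached at most 13 counts. Each listed gene was read by 1 amplicon, so a count of 0 cannot tell a missing transcript from an amplicon that failed. Of the remaining TREM2 list, the 2 largest differences at the high concentration were CLU, an extracellular chaperone, at -0.33 ± 0.21 (SE, edgeR adjusted p = 0.78) and PLCG2, a phospholipase, at -0.31 ± 0.28 (edgeR adjusted p = 0.87). The netrin receptor DCC, a partner of DRAXIN, was likewise at 0 counts in every library. The largest values of the DRAXIN list were those of the guidance ligand NTN1, 0.62 ± 0.31 (edgeR adjusted p = 0.68), and the Wnt inhibitor DKK1, 0.57 ± 0.41 (edgeR adjusted p = 0.81).

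The lists around the other members likewise held no called gene. Around SYTL1, the RAB27 effector EXPH5 stood at 0.46 and RPH3AL, a RAB effector of exocytosis, at 0.45 (edgeR adjusted p = 0.78 and 0.73). Around INPP5D, the related phosphatase INPP5J stood at 1.16 ± 0.55 on at most 31 counts, and SHC1, an adaptor that binds INPP5D, at 0.55 ± 0.15 (edgeR adjusted p = 0.65 and 0.26). SHC1 was the single partner gene called in any alternative, in 1 fit of all 39 libraries. Among the ABCA transporters, ABCA6 was at -0.90 ± 0.56 and ABCA7 at 0.79 ± 0.30 (edgeR adjusted p = 0.77 and 0.50). Near CEL, the esterase CES3 was at -1.59 ± 0.75 on at most 24 counts (edgeR adjusted p = 0.65), and it passed the filter at the high concentration only. The hepatic lipase gene LIPC was at -0.63 ± 0.31 (edgeR adjusted p = 0.66), and pancreatic lipase, PNLIP, reached at most 1 count. Around MR1, the peptide transporter TAP1 was at 0.52 ± 0.20 and the proteasome subunit PSMB9 at 0.40 ± 0.18 (edgeR adjusted p = 0.51 and 0.60).

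The p53 targets are the reference for DNA damage. Of 26 listed and tested, 1 was called at the high concentration, FDXR at 1.42 ± 0.21 (SE, edgeR adjusted p = 0.0329), while 25 had a positive difference, 21 were higher at an unadjusted p under 0.05, and DESeq2 called 10. Over all 13602 genes 1068 had an unadjusted p under 0.05, and DESeq2 called 96. Their median log2 difference was 0.62. CDKN1A, the arrest gene, stood at 0.58 ± 0.14 and MDM2, the inhibitor of p53, at 0.99 ± 0.28 (edgeR adjusted p = 0.19 and 0.29). The differences of ABCA12, CEL, INPP5D and SYTL1, each at or above 1.45, were larger in value than that of FDXR, the largest of the p53 list. The members were chosen for their rise and the p53 list by function, so this order is not a comparison of like with like.

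**Figure D4:**
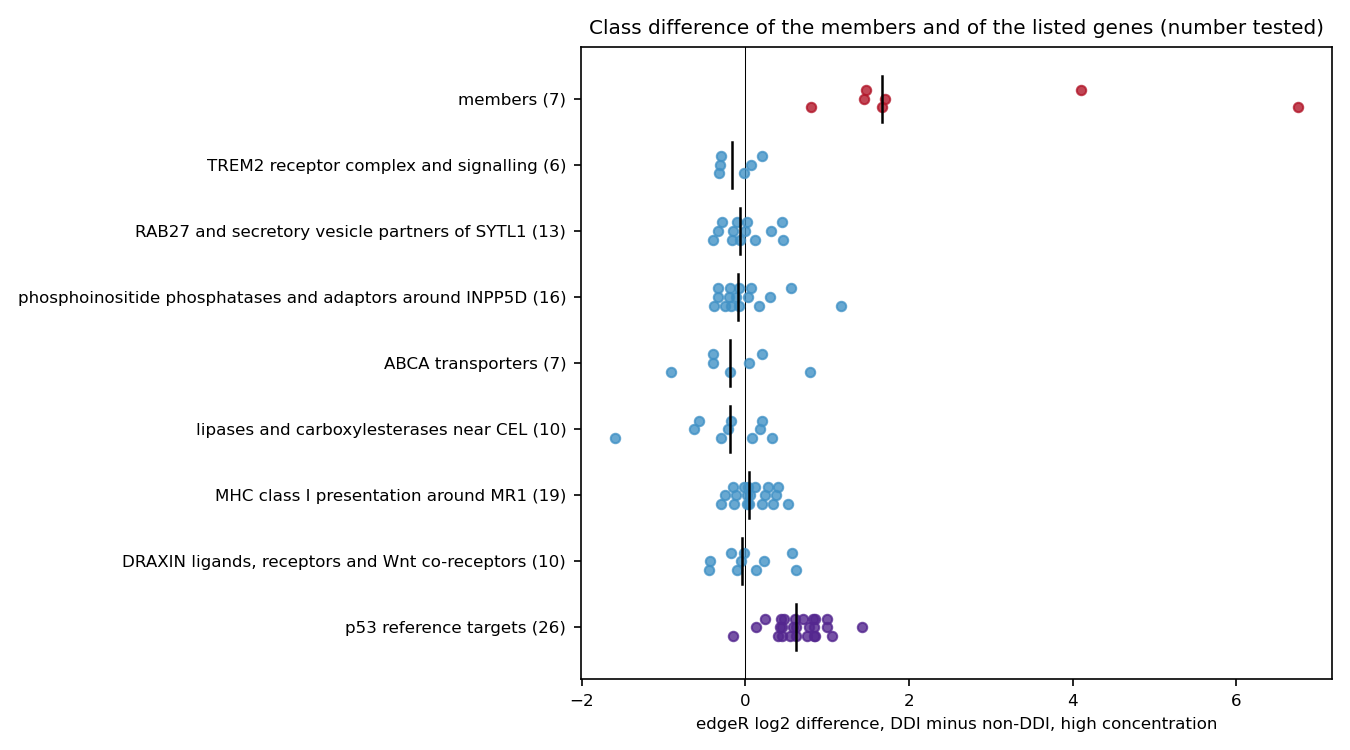
edgeR log2 difference between DDI and non-DDI chemicals at the high concentration (horizontal axis) for the 7 members, 7 partner lists and the p53 targets, with 1 point per gene tested, the number tested in brackets and a bar at the median. The p53 list has its median at 0.62 and the partner lists have theirs between -0.19 and 0.05. The 2 members furthest right, TREM2 and DRAXIN, rest on controls at or near 0 counts.

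Most markers of myeloid, pancreatic acinar, keratinocyte and neuronal cells stayed under 10 counts in every library. As for TYROBP, a 0 from 1 amplicon does not show absence. These lists do not stand for SYTL1 or MR1, and MR1 was read at 21.8 to 51.3 RPM in the DMSO and media controls. Of 13 myeloid markers 10 stayed under 10 counts in every library, with PTPRC and SPI1 at 0 throughout, and CD68 (49.9 to 115 RPM) and CD14 (9.59 to 52.5 RPM) were the highest. The class difference was -0.01 ± 0.18 (SE) for CD68, -0.34 ± 0.27 for CD14 and 0.92 ± 0.49 for ITGAM, an integrin of at most 43 counts (edgeR adjusted p = 0.999, 0.84 and 0.71). The summed myeloid level at the high concentration was 67.9 to 140 RPM with DDI and 88.3 to 122 RPM with non-DDI chemicals. All 8 pancreatic acinar markers stayed under 10 counts. Among 7 measured keratinocyte markers KRT5 reached 80.4 RPM and KRT14 15.7 RPM, with KRT1 at 0 throughout and TP63 at 1 count at most, and their summed level was 9.97 to 49.7 RPM with DDI and 10.6 to 52.1 RPM with non-DDI chemicals. Against matched controls the 3 keratinocyte markers tested had positive differences, 0.73 for KRT14, 0.63 for KRT10 and 0.56 for KRT5 (edgeR adjusted p = 0.88, 0.77 and 0.85). Of 8 neuronal markers 4 stayed under 10 counts. RBFOX3 reached at most 1 count and STMN2 none, while MAP2 reached 57.3 RPM and SYT1 14.5 RPM.

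Markers of the labelled cell type were present in part, and the hepatocyte marker SERPINA1 ran only from 5.37 to 25.3 RPM. ALB, the albumin gene, ran from 2299 to 36331 RPM over the 39 libraries and KRT19, a cholangiocyte keratin, from 199 to 1314 RPM, while the cholangiocyte markers KRT7, EPCAM and CFTR stayed under 10 counts. The 10 hepatocyte markers had a median log2 difference of -0.64 between classes at the high concentration, with 0 called by edgeR (2 lower at an unadjusted p under 0.05) and a summed level of 8466 to 42551 RPM with DDI against 21742 to 44086 RPM with non-DDI chemicals. At the mid concentration their median was -0.70, with 0 of 10 above 0, 4 lower at an unadjusted p under 0.05 and 0 called. The cholangiocyte marker SOX9 stood at -1.02 ± 0.28 at the high concentration (SE, edgeR adjusted p = 0.27). The part of any of these markers in the members' rise was not tested. In RNA of a whole culture, more cells of a type and more RNA per cell cannot be told apart for any of the 7 genes.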

How the data were processed

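Gene expression was measured in 39 libraries of HepaRG™ RNA with a targeted whole-transcriptome amplicon panel. The authors aligned the reads to the panel's transcripts (hg19) with the Torrent Mapping Alignment Program of Ion Torrent Suite v5.04, combined the chips by barcode and deposited counts of reads per amplicon target, with no normalization. A second deposited table gives RPM, in which the authors scaled the counts of a library to a total of 1000000. Values recomputed here were within 0.000538 of it. The 10 spike-in targets, all at 0 counts, and 6 annotation columns were left out, and hg19 coordinates are not given because no annotation of that build was used here.

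The 7 members and all gene lists were chosen with earlier results of these data known. Groups came from the sample labels, the DDI and non-DDI classes from the study. Log2 ratios used a pseudocount of 1 RPM and the matched control. Intervals are exact (95%), and a count of 0 was read as a limit of 3 counts per library. Class differences over all genes were fitted with edgeR 4.0.16 (R 4.3.3) on counts of 19 libraries per concentration (10 treated, 9 controls), with TMM, filterByExpr, the control set as a block, and Benjamini-Hochberg adjustment at 0.05. The SE given for an edgeR difference is the absolute difference divided by the square root of the test's F. It is therefore not separate from that test, and for the members nothing is read from it. The script was tested on simulated data before use. Likeness was Pearson r over 30 conditions, among genes with at least 10 counts in at least 30 libraries. Named genes were the 7 members, the 3 genes most like each (1 of them is not reported here), the called genes of each partner list or else the 2 with the largest absolute difference, CDKN1A and MDM2, and the extremes of marker lists. ASF1B, ITGAM, KRT10, SERPINA1, SOX9 and those markers at 0 or 1 count were named after their values were seen. Alternatives were a pseudocount of 0.1, TMM and DESeq2 1.42.0 scaling, other control references, a minimum of 10 counts, DESeq2, no filter, no block, 1 fit of all libraries, leaving out each chemical, and, added after seeing the data, DMSO-given chemicals alone.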

Additional observations from a re-analysis of the deposited data

Results flagged for a closer look

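Of 56 groups of 4 or 5 libraries, 4 held a value whose gap to the nearest other value was large for the group's range, and chance gives about 2.8 at that rate of 1 in 20. INPP5D with ETP was the highest DDI log2 ratio at the low concentration, at 0.81 against 0.54 for the next. In the DMSO controls the control of AFB1 and COL was the highest for INPP5D, at 3.08 on the log2(RPM + 1) scale against 2.19 for the next, and for ABCA12, at 4.59 against 3.73. In the media controls the NaCl control was the lowest for INPP5D, at 3.70 against 4.23 for the next.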

How the results depend on the processing

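All 21 member differences (7 genes at 3 concentrations) were above 0 as reported. Of 351 values under alternatives, 326 moved by less than the larger class SD, 17 moved by more and 8 changed sign. The 326 include the 21 values of each setting that left out a chemical. Leaving out 1 of 5 chemicals cannot shift a class mean by that class's SD, so nothing is read from those. The 17 were 6 with a pseudocount of 0.1, 9 with the mean of all 9 controls and 2 within DMSO. The 8 were, with the mean of all 9 controls as reference, SYTL1 (-0.58), INPP5D (-0.60), ABCA12 (-0.56), CEL (-0.10) and MR1 (-0.17) at the low concentration and INPP5D (-0.095) at the mid concentration, and, within DMSO, DRAXIN (-0.016) and SYTL1 (-0.017) at the low concentration. The number of members with every DDI above every non-DDI chemical was 6, 7 and 2 at high, mid and low. It became 1, 0 and 0 with the mean of all 9 controls, and 5, 3 and 0 with the mean of same-vehicle controls, and 4 at high with DESeq2 size factors. Leaving out each chemical gave 6 to 7, 7 and 2 to 3. Genes called at the high concentration were 7 as reported, 96 with DESeq2, 34 without the filter, 34 without the block (12 higher, 22 lower), 170 in 1 fit of all 39 libraries, and 0 to 17 when each chemical was left out (1 without NaCl, 13 without COL, 17 without MMS). At mid they were 0, 12 with DESeq2, 14 in the fit of 39 libraries, and 0 to 2 with a chemical left out. Partner genes called at high went from 0 to 1 in the fit of 39 libraries. The cause of these changes was not tested. A minimum of 10 counts per library left too few chemicals for a DRAXIN or TREM2 value. With a pseudocount of 0.1 the DRAXIN and TREM2 differences grow at each concentration (3.33 and 2.86 at mid, 5.038 and 3.84 at high). Ratios and fits were paired by the matched control, and the labels give no replicate numbers for another pairing. Depth limits DRAXIN and TREM2 most, whose DMSO controls hold 0 to 4 counts.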
